A study of Ipomoea batatas with 12 samples.

Results

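The skin and the flesh of the storage root were compared within the natural mutant of a sweetpotato line (Ipomoea batatas), over 6 RNA-seq libraries. The groups were the skin of the mutant, labelled MT skin, and its flesh, labelled MT flesh, with 3 libraries each out of 12 in the series. The other 6 libraries came from skin and flesh of M1-125, the wild-type line (WT) from which the mutant arose. All roots were grown in the field without a named treatment and were taken 120 days after planting. The series text speaks of biological replicates and does not state how plants were assigned to them; a p-value here therefore reflects variation among the sampled libraries, which may be partly technical. The mutant is 1 natural line, and the labels describe neither its lesion nor the colour of its roots. Of 225111 genes in the table, 138509 had a count in these 6 libraries, and 67629 passed the low-count filter and were tested.

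A storage root is covered by a periderm, a layered tissue whose outer cork cells lay down suberin and lignin and then die, and which seals the root against water loss and pathogens. In coloured varieties the skin also accumulates anthocyanins. The flesh consists mainly of parenchyma cells that store starch and storage proteins such as sporamin and beta-amylase. No source used here pairs the identifiers with gene names (0 of 175826 entries of a table from another sweetpotato assembly carried one), so the labelled tissues could not be checked against marker genes. Genes are therefore described by their level, rank and class, with 4 of them named by identifier. Identifiers hold a number, read here as the chromosome, a letter, read as the haplotype, and a running number, read as the position in a series of genes. That reading was assumed, and coordinates were not used here. The sweetpotato genome is hexaploid, and how reads were divided among near-identical haplotype copies is uncertain for any single identifier.

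Total counts ran from 8507461 to 10715197 in MT skin and from 15893593 to 18258638 in MT flesh, so the flesh was read more deeply. Levels are given in CPM, counts per 1000000 counts after TMM scaling, which sets the typical gene equal between libraries. The TMM factors were 0.892 to 0.903 in MT skin and 1.11 to 1.12 in MT flesh, a gap that matters for every statement on direction below. Rank correlations of levels across the tested genes were at least 0.914 between libraries of the same tissue and at most 0.576 between tissues, as a description over genes that are not independent. In bulk tissue, fewer cells of a type and less RNA per cell cannot be told apart.

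The counts of MT skin were held by fewer genes than those of MT flesh. The most abundant genes that together held 50% of the counts numbered 2847, 2845 and 2805 in the MT skin libraries, against 3674, 3751 and 3697 in the MT flesh libraries. The means were 2832 ± 23.7 and 3707 ± 39.5 genes (SD, n = 3 each), a skin to flesh ratio of 0.764, and the libraries of the tissues did not overlap. The effective number of genes, which is the exponential of the Shannon entropy and counts genes as if all were equally abundant, was 14991 ± 133 in MT skin and 18866 ± 132 in MT flesh (SD, n = 3 each).

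This concentration was present at each depth of the ranking. The 10 most abundant genes of a library took 5.10%, 5.13% and 5.18% of the counts in MT skin, against 3.20%, 3.24% and 3.20% in MT flesh. With the 100 most abundant genes the share was 13.7% ± 0.117 in MT skin and 11.0% ± 0.111 in MT flesh. With the 1000 most abundant genes it was 34.5% ± 0.164 in MT skin and 30.2% ± 0.189 in MT flesh (SD, n = 3 each). The skin lead thus stood at 1.92, 2.74 and 4.27 percentage points, and in every case the libraries of the tissues were separate. In relative terms it narrowed down the ranking, with skin to flesh ratios of 1.6, 1.25 and 1.14.

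**Figure D1:**
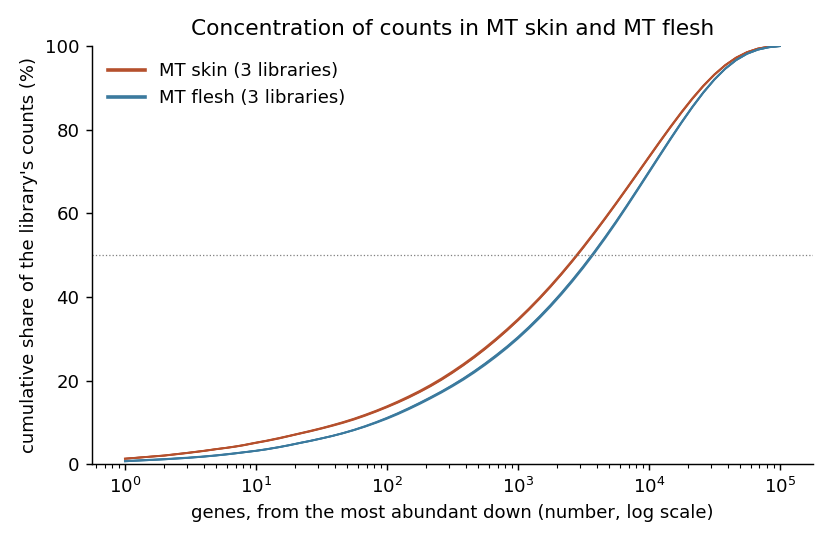
Cumulative share of a library's counts (y axis, percent) held by its most abundant genes (x axis, number of genes, log scale), 1 line per MT skin or MT flesh library; the dotted line marks 50%. The 3 skin lines lie above the 3 flesh lines through most of the range and cross 50% at 2805 to 2847 genes, against 3674 to 3751 genes in flesh.

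These measures need no scaling between libraries. Per unit of gene length, a level that puts short and long genes on the same footing, the 10 most abundant genes took 7.31% ± 0.0465 in MT skin and 4.34% ± 0.0844 in MT flesh (SD, n = 3 each). In all, 11 measures of gene number, level and concentration were tested by a two-sided exact permutation test over the 6 libraries. In this exact test each gave p = 0.1, the smallest that 3 against 3 libraries allow, and 0.1 after Benjamini-Hochberg adjustment over the 11 measures. The design therefore cannot pass 0.05 for them, and each difference is to be read against the spread between libraries.

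Fewer genes were detected in MT skin once both tissues were set to the same total count. After thinning each library in expectation to 8507461 counts, the smallest total of the 6, genes with at least 1 count numbered 94042, 92860 and 91986 in MT skin, against 100512, 100898 and 100118 in MT flesh. The means were 92963 ± 1032 and 100509 ± 390 genes (SD, n = 3 each), 7546 fewer in skin. Genes with at least 10 counts numbered 54428 ± 49.9 in MT skin and 56732 ± 101 in MT flesh (SD, n = 3 each), 2303 fewer in skin. Both differences exceeded the spread between libraries, without overlap. In the counts as deposited the gap was wider, with the flesh libraries the deeper ones: 93957 genes on average in MT skin and 107959 in MT flesh had at least 1 count. Equal totals leave out the TMM factors, and a depth matched by TMM was not run. With TMM, genes above 1 CPM were more numerous in MT skin, at a mean of 58787 against 57025 in MT flesh. Flesh drawn to 7006062 counts comes near to a match by TMM with skin at 8507461 counts. The flesh libraries then had 97659 to 98341 genes with at least 1 count, still more than any skin library. With at least 10 counts they had 53281 to 53445 genes, fewer than the 54378 to 54478 of the skin libraries. The lower number in skin was thus kept for genes with at least 1 count, and for at least 10 counts it turned with the scaling.

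**Figure D2:**
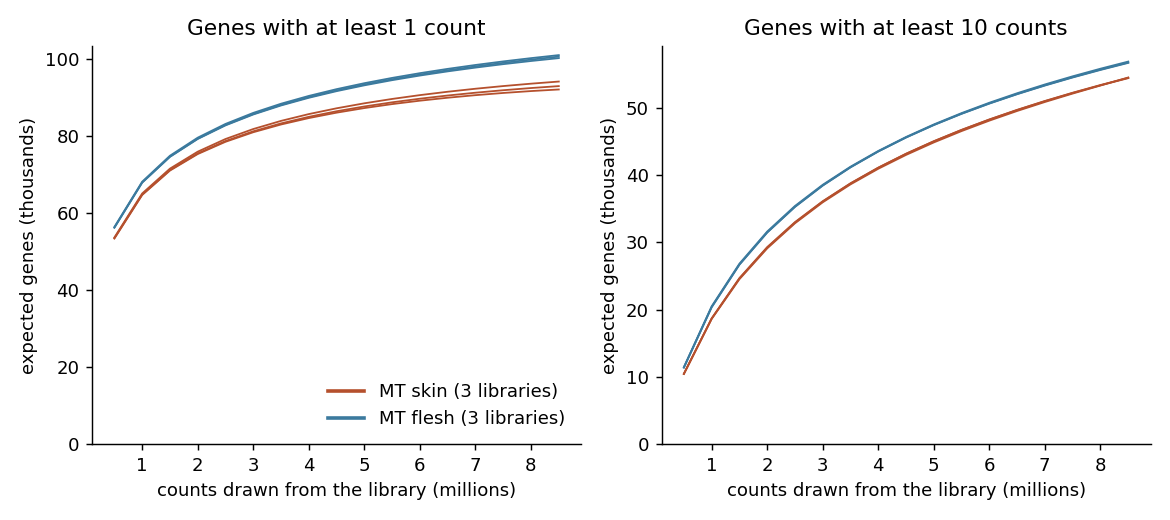
Expected number of genes with at least 1 count (left) and at least 10 counts (right), in units of 1000 genes, against the number of counts drawn from each library in units of 1000000, 1 line per library. At the right end of the left panel the skin libraries stand at 91986 to 94042 genes and the flesh libraries at 100118 to 100898.

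At the top of the range more genes were counted in MT skin with TMM. Genes above 1000 CPM numbered 41, 44 and 44 in the MT skin libraries, against 25, 24 and 24 in the MT flesh libraries. Genes above 100 CPM numbered 1687 ± 13.6 in MT skin and 1172 ± 5.86 in MT flesh (SD, n = 3 each), 1.44 times as many in skin. The skin also led at these levels, by smaller margins, when library totals were used without TMM, with 35, 38 and 38 genes above 1000 CPM in MT skin and 31 in each MT flesh library. Above 100 CPM the same scaling gave 1420, 1418 and 1419 genes in MT skin, against 1342, 1338 and 1364 in MT flesh. Per unit of length the tissues overlapped above 1000 per 1000000, with 51.7 ± 2.08 genes in MT skin and 49.7 ± 1.53 in MT flesh (SD, n = 3 each), and the two-sided exact permutation p was 0.5. Above 100 on that scale there were 1353 ± 10.1 genes in MT skin and 1293 ± 9.64 in MT flesh (SD, n = 3 each).

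At low and middle levels no scaling-free order could be given. Genes above 1 CPM numbered 58787 ± 157 in MT skin and 57025 ± 341 in MT flesh, and genes above 10 CPM 19413 ± 87.5 in MT skin and 18078 ± 89.9 in MT flesh (SD, n = 3 each). With library totals alone skin had 2634 fewer genes above 1 CPM and 1748 fewer above 10 CPM, and per unit of length 3499 and 2113 fewer.

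The transcript most abundant in MT skin was nearly missing from MT flesh. Ibat.Brg_v3.06CG006510 stood at 14901, 14961 and 15130 CPM in the MT skin libraries, against 0.202, 0.249 and 0.229 CPM in the MT flesh libraries, where it had 4, 5 and 4 counts. It took 1.33% ± 0.019 of all MT skin counts (SD, n = 3), the largest share of any gene in either tissue, and ranked first in skin and 83756th in flesh. Its log2 fold change, skin over flesh, was 15.96 (SE 0.09 from the spread of log2 CPM between libraries), with an adjusted p of 9e-16 by edgeR's quasi-likelihood test. Since 13 counts stand against 388266, the ratio of levels was 66130 with an exact 95% interval of 38671 to 124198, which covers counting error only.

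The runner-up in skin carries the same number and another letter. Ibat.Brg_v3.06DG005030 stood at 8464, 8619 and 8603 CPM in the MT skin libraries, against 1.56, 2.39 and 1.84 CPM in the MT flesh libraries. Its log2 fold change was 12.11 (SE 0.18, adjusted p = 6.8e-12 by edgeR's quasi-likelihood test), and it held 0.757% of the MT skin counts. The identifiers do not show whether it and Ibat.Brg_v3.06CG006510 are copies of a single gene; their lengths are 1414 and 1472 bases.

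The genes that marked MT flesh in the same way were less extreme. Ibat.Brg_v3.01BG002710 stood at 260, 259 and 257 CPM in the MT skin libraries, against 4246, 4015 and 4325 CPM in the MT flesh libraries, and ranked 441st in skin and second in flesh. It fell in skin with a log2 fold change equal to -4.02 (SE 0.03; by edgeR's quasi-likelihood test the adjusted p was 4.5e-12), a 16.2-fold difference. Ibat.Brg_v3.09DG001600 stood at 27.9, 23.0 and 23.4 CPM in the MT skin libraries, against 3033, 3095 and 3097 CPM in the MT flesh libraries. Its log2 fold change was -6.95 (SE 0.09, adjusted p = 6.8e-12 by edgeR's quasi-likelihood test). For these 4 genes the libraries of the tissues did not overlap, which held for 30.2% of tested genes as higher in skin and 31.8% as lower, and each lay at the top of its own tissue by the rule that chose it.

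The same 4 identifiers were on the same side in WT, with other shares. Ibat.Brg_v3.06CG006510 took 1.33% ± 0.019 of the counts in MT skin and 1.87% ± 0.0372 in WT skin, and Ibat.Brg_v3.06DG005030 0.757% ± 0.0119 in MT skin and 1.25% ± 0.0348 in WT skin (SD, n = 3 each). Ibat.Brg_v3.01BG002710 took 0.46% ± 0.0167 in MT flesh and 0.298% ± 0.0131 in WT flesh. Ibat.Brg_v3.09DG001600 took 0.337% ± 0.00475 in MT flesh and 0.401% ± 0.0115 in WT flesh (SD, n = 3 each).

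Among the 10 most abundant genes of MT skin, 9 passed the test as higher there, each at least 4-fold, where 26.7% of all tested genes were higher in skin. The fifth, the sixth and the ninth gene stood at means of 4825, 3574 and 3413 CPM in MT skin, against 0.355, 0.0672 and 0.0332 CPM in MT flesh. The sixth and the ninth are neighbours in running number, on number 04 and letter D. The remaining 4 were present in both tissues, at 3321 to 5473 CPM in MT skin and 140 to 653 CPM in MT flesh.

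The third gene of the MT skin ranking was the most abundant gene of MT flesh. It stood at 6986, 7204 and 7028 CPM in the MT skin libraries, against 6462, 7328 and 6425 CPM in the MT flesh libraries, which overlapped. Its log2 fold change was 0.07 (adjusted p = 0.25 by edgeR's quasi-likelihood test), and -0.24 with library totals alone (adjusted p = 0.0023). It was the single gene shared by the top 10 of both tissues.

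Of the 10 most abundant genes of MT flesh, 8 passed the test as lower in skin, 5 of them at least 4-fold, where 25.5% of all tested genes were lower. The fourth, the eighth and the ninth were nearly level between the tissues, at 2406, 2342 and 1329 CPM in MT skin and 2753, 2046 and 1682 CPM in MT flesh; the eighth, higher in skin by 0.19 on the log2 scale with TMM, was lower by a log2 fold change of -0.12 with library totals. The tenth stood at 20.6 CPM in MT skin and 1678 CPM in MT flesh. The median gene of the flesh top 10 ranked 105th in skin, while the median gene of the skin top 10 ranked 23267th in flesh. The skin top 10 thus held 5.14% of the counts of MT skin and 0.897% of those of MT flesh, whereas the flesh top 10 held 1.32% of the counts of MT skin and 3.21% of those of MT flesh. These lists were ranked on the levels compared, so the values are a description.

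Deeper lists shared more genes. The top 100 lists had 26 genes in common, 26% of each, and the top 1000 lists 350, 35% of each. Of the 100 most abundant skin genes, 92 passed the test as higher in skin and 5 as lower, and their median level was 940 CPM in MT skin and 120 CPM in MT flesh. Of the 100 most abundant flesh genes, 76 passed as lower in skin and 18 as higher, with median levels of 273 CPM in MT skin and 701 CPM in MT flesh. A difference of 4-fold or more towards the own tissue was held by 67 of the skin list and 43 of the flesh list. Over all tested genes 26.7% were higher in skin and 25.5% lower, with 13.4% at least 4-fold higher and 11.0% at least 4-fold lower. These lists too were ranked on the levels compared, so a lean to the own tissue is built in. The skin list drew on 14 of the 15 numbers, with number 04 the commonest at 14 genes, against 8.45% of tested genes. The flesh list drew on all 15, with number 01 the commonest at 16 genes, against 8.90% of tested genes.

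The majority of tested genes differed between the tissues. In edgeR's quasi-likelihood test, 35314 of 67629 genes differed at a Benjamini-Hochberg adjusted p under 0.05, or 52.2%. There were 18058 higher in MT skin, 26.7% of tested genes, and 17256 lower, 25.5%. Of those that differed 51.1% were higher in skin with TMM, 45.2% with upper quartile scaling and 38.9% with library totals alone. Upper quartile scaling moved the median log2 fold change of all genes by -0.144 and library totals by -0.312, so which direction was in the majority rests on the scaling.

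Rises were larger than falls. The median of the genes that rose in MT skin was 4.03-fold and that of the genes that fell 3.32-fold, also with genes absent from a tissue set at their lower bound. At least 4-fold higher were 9075 genes, 13.4% of tested genes, and at least 4-fold lower 7423, 11.0%. With library totals alone these counts were 7952 higher and 9151 lower, so their order also turned with the scaling. At least 16-fold higher were 4291 genes and at least 16-fold lower 2727, or 2164 with absent genes at their bound. That bound was 0.0523 CPM in MT flesh and 0.116 CPM in the shallower MT skin, so falls are capped sooner than rises. At 16-fold skin kept the lead with library totals, at 3839 against 3121 by fitted values.

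**Figure D3:**
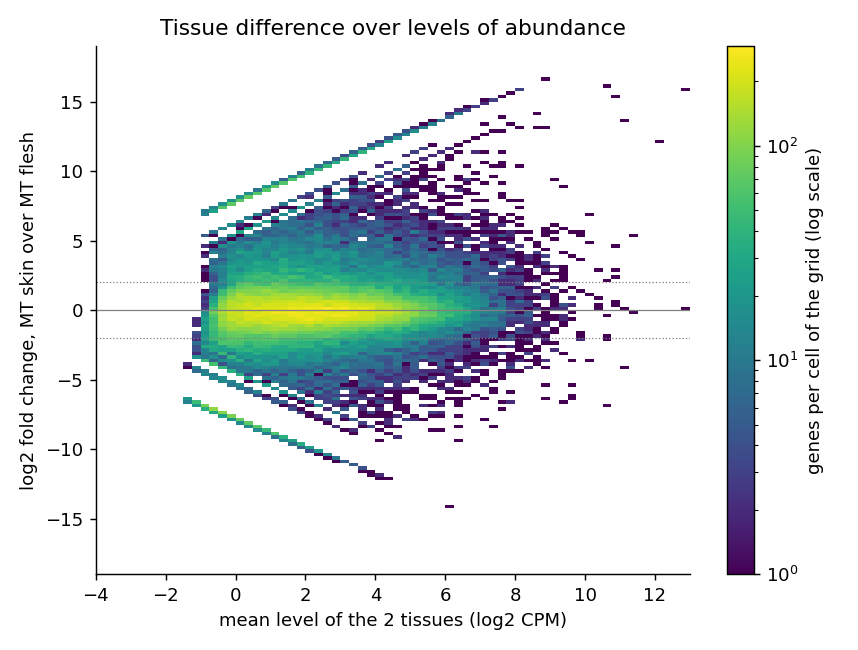
Log2 fold change of MT skin over MT flesh (y axis) against the mean level of both tissues in log2 CPM (x axis) for the 67629 tested genes; colour gives the number of genes per cell of the grid on a log scale, and dotted lines mark 4-fold differences. The cloud is centred near 0 and widens to both sides, with more genes far above it than far below at high levels; the slanted streaks at the edges are genes with few or no counts in a tissue, whose fitted fold depends on a prior count.

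The balance between tissues changed over levels of abundance. Genes were sorted into classes by the mean of their levels in MT skin and MT flesh. Of the 6632 genes under 1 CPM, 12.3% were higher in MT skin and 27.1% lower, so 31.3% of those that differed were higher. Of the 20285 genes at 1 to 3 CPM, 4062 were higher and 3784 lower (18.7%), and of the 21139 at 3 to 10 CPM 25.9% were higher and 24.7% lower. These middle classes, together with the 12783 genes at 10 to 30 CPM (34.8% higher, 31.7% lower), were nearly balanced.

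Above 30 CPM the skin led in each class with TMM. Of the 5396 genes at 30 to 100 CPM, 45.7% were higher in MT skin and 35.2% lower. Of the 1155 genes at 100 to 300 CPM, 57.4% were higher and 34.4% lower, and of the 210 genes at 300 to 1000 CPM 52.4% were higher and 41.9% lower. Among the 29 genes over 1000 CPM, 19 were higher and 8 lower. Among genes that differed, the share higher in skin was 56.5%, 62.5% and 55.6% in the classes between 30 and 1000 CPM. It was 70.4% in the highest class. The 31.3% of the lowest class is not read as the start of a trend, since the low-count filter cuts through that class.

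With library totals alone this share was higher under 1 CPM and lower in every class above it, and it grew less regularly with level. It was 34.3% under 1 CPM, 40.6%, 37.1% and 37.7% up to 30 CPM, 42.5% at 30 to 100 CPM, 51.3% at 100 to 300 CPM, 46.3% at 300 to 1000 CPM and 57.1% over 1000 CPM. A skin lead with both scalings was therefore present at 100 to 300 CPM and over 1000 CPM alone. The class under 1 CPM touches the low-count filter and the unequal depth. The filter was applied before TMM scaling, so its cutoff lies at a lower TMM level in flesh than in skin. With counts thinned to equal totals it held 958 genes in place of 6632, of which 14.9% were higher and 59.0% lower, so 20.2% of those that differed were higher. With classes set by the higher of both tissue means it was 1.86%, on 5 genes higher and 264 lower. At 1 to 3 CPM the balance turned to flesh under both alternatives, with 3461 genes higher and 3552 lower in thinned counts, and 2656 higher and 3348 lower with classes by the higher mean.

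**Figure D4:**
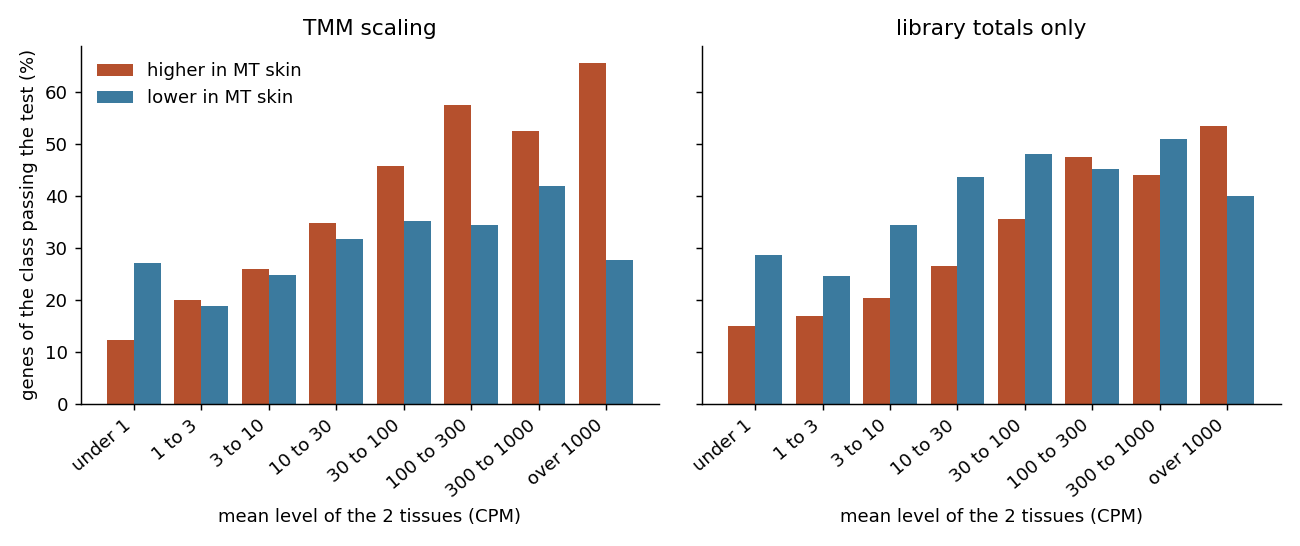
Percent of the tested genes of each abundance class that were higher (left bar of a pair) or lower (right bar) in MT skin in the edgeR test, with TMM scaling (left panel) and library totals only (right panel); classes are by the mean CPM of both tissues. With TMM the higher share is 12.3% under 1 CPM, a class cut by the low-count filter, and 65.5% over 1000 CPM. The lower share stays between 18.7% and 41.9% with TMM, and between 24.5% and 50.9% with library totals only.

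More of the abundant genes passed the test, and their differences also had smaller errors. The share that differed was 38.7% at 1 to 3 CPM and 93.1% over 1000 CPM, while the median SE of the log2 difference fell to 0.05 over 1000 CPM, against 0.34 at 1 to 3 CPM. The share of genes at least 2-fold apart by fitted value, which does not use the test, was 51.6% at 1 to 3 CPM, 41.3% at 10 to 30 CPM and 69.0% over 1000 CPM, so it was lowest in the middle of the range. Medians of the absolute log2 fold change followed the same course, with 1.04, 0.79 and 2.39 in these classes.

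The spread between libraries also differed by tissue at low levels. At 1 to 3 CPM the median SD of log2 CPM among the 3 libraries was 0.467 in MT skin and 0.277 in MT flesh, and at 100 to 300 CPM 0.07 in MT skin and 0.06 in MT flesh. Over 1000 CPM the skin libraries were the closer ones, with 0.023 in MT skin and 0.058 in MT flesh. The skin libraries held fewer counts, and the part of depth in this was not tested.

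The genes that passed the test held most of the counts of both tissues. The 9075 genes at least 4-fold higher in skin took 34.9% ± 0.104 of the counts in MT skin and 3.35% ± 0.0597 in MT flesh (SD, n = 3 each). The 7423 genes at least 4-fold lower took 1.61% ± 0.018 in MT skin and 18.5% ± 0.0768 in MT flesh. Genes that differed by less than 4-fold had 27.5% in MT skin and 17.8% in MT flesh when higher, and 14.3% in MT skin and 33.5% in MT flesh when lower. The 32315 genes that did not pass the test held 20.3% of the counts of MT skin and 25.4% of those of MT flesh, and the genes left untested 1.42% and 1.53% in that order. These classes come from the same libraries, so their shares are a description of where the counts lay.

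**Figure D5:**
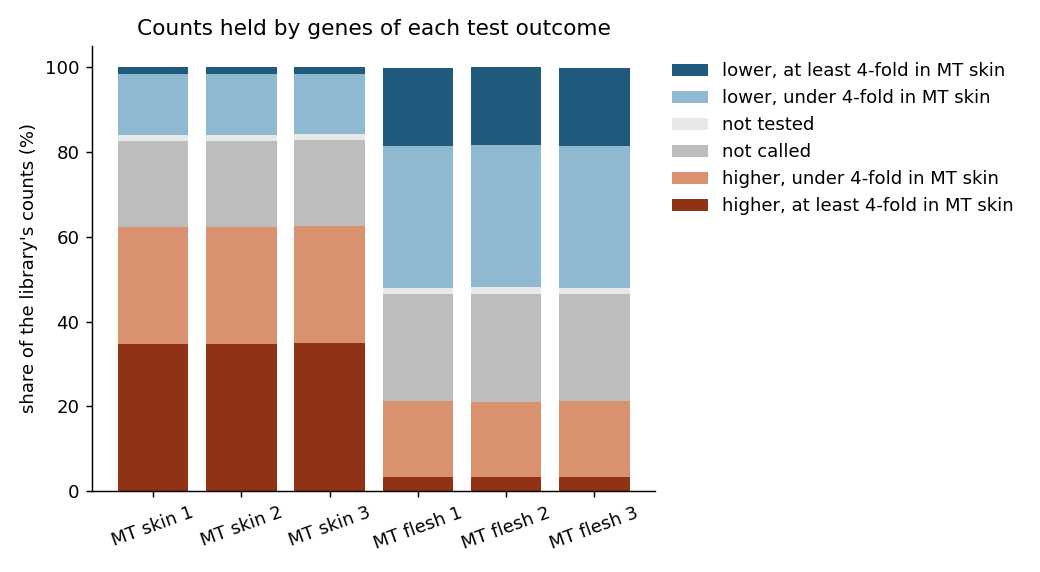
Share of each library's counts (y axis, percent) held by genes grouped by their test outcome, for the 3 MT skin libraries (left) and the 3 MT flesh libraries (right). Genes at least 4-fold higher in skin fill 34.8% to 35.0% of the skin bars, and genes at least 4-fold lower fill 18.4% to 18.5% of the flesh bars.

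The filter on low counts shaped part of these totals. Above the minimum in every skin and every flesh library were 43089 genes, of which 26.6% were higher in MT skin and 24.1% lower, close to 26.7% and 25.5% over all tested genes. A further 7767 genes were above it in every skin library but not in every flesh library, and 13378 in every flesh library but not in every skin library. Genes of these groups entered the test through the tissue whose libraries all passed the minimum, so a lean to that tissue is built in. Of the 7767 genes, 84.0% were higher in MT skin and 0.0% lower. Of the 13378 genes, 0.0523% were higher and 51.5% lower, and the others did not pass the test. The lowest summed count over the 6 libraries was 27 for a tested gene, and the highest of an untested one 901.

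At equal totals, genes seen in a single tissue were more numerous in flesh and more abundant in skin. The larger number in flesh came from genes under 30 summed counts. Equal totals leave out the TMM factors, and a depth matched by TMM was not run for these genes. With counts thinned to equal totals, 3569 genes had a count in all 3 MT skin libraries and none in MT flesh, and 4982 genes had a count in all 3 MT flesh libraries and none in MT skin. With at least 30 counts summed over the 3 libraries there were 1717 such genes for MT skin and 1279 for MT flesh, with at least 300 counts 419 and 53, and with at least 3000 counts 39 and 1 in the same order. The skin genes held 2.74% of the counts of MT skin, and the flesh genes 0.66% of those of MT flesh. The 64322 genes with a count in all 6 libraries held 95.0% of the counts on average. In the smallest library, MT skin 3, no count allows a level of up to 0.396 CPM, which 3 counts there correspond to. That bound is for this single library and covers counting error only. For a gene absent from all 3 libraries of a tissue the bound is lower, and it was not computed for thinned counts.

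Genes lower in skin were longer than genes higher in skin. The median length was 1724 bases for genes that were higher in MT skin, 1970 bases for genes that were lower and 1797 bases for the others. At 500 to 1000 bases 31.1% of tested genes were higher in MT skin and 20.2% lower, and over 3000 bases 20.8% were higher and 31.0% lower. The median log2 fold change of these classes was 0.19 and -0.24 with TMM, and -0.12 and -0.55 with library totals. Genes under 500 bases stood outside this order, with 20.9% higher and 21.2% lower. Of the lengths of tested genes, 53.0% are multiples of 3; whether the gene models include untranslated ends was not tested, so length here may differ from transcript length. Neither RNA integrity nor insert size is given per library, and their part in this was not tested.

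The tissue difference varied little over the letters and more over the numbers of the identifiers. Over the 6 letters the share of genes higher in MT skin ran from 26.3% to 27.1% and the share lower from 24.9% to 26.4%. Over the 15 numbers the share that differed ran from 50.2% for number 14 to 54.8% for number 10. Numbers 08 and 14 leaned to flesh, with 22.3% and 22.7% of genes higher in MT skin and 28.4% and 27.5% lower, at median log2 fold changes of -0.19 and -0.16, while the other numbers lay between -0.05 and 0.03. With library totals number 08 stood at -0.50 and number 14 at -0.47, and the other numbers between -0.37 and -0.28. The 673 tested genes outside the numbered blocks differed in 45.2% of cases, with 26.9% higher in MT skin and 18.3% lower, at a median log2 fold change of 0.14 with TMM and -0.17 with library totals.

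Genes next to each other in running number lay on the same side more often than the average gene. After a gene that was higher in MT skin, the next tested gene of the block was higher in 33.6% of cases and lower in 22.2%, against 26.7% and 25.6% after any gene. After a gene that was lower, the next was lower in 30.2% and higher in 23.4%. There were 203 unbroken runs of at least 5 higher genes, the longest of 12 on number 01, letter A, and 128 such runs of lower genes, the longest of 15 on number 09, letter D. Tandem copies can share reads, so neighbours are not independent, and these values are a description.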

How the data were processed

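RNA-seq libraries of storage root skin and flesh were analysed from a table of raw counts per gene and library. The counts were deposited without normalization, per the file headers, with a gene length in bases as another deposited column. Per the submitters' processing notes the tools were HISAT2 2.0.5, featureCounts and DESeq2 1.40.2; what each did is not stated there. Build, annotation, strandedness and the handling of multiply matching reads are not given in the sources used. All columns were matched to libraries by name, and groups were taken from the titles.

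Counts of the 6 mutant libraries were analysed in R 4.3.3 with edgeR 4.0.16. After filterByExpr (minimum count 10) libraries were scaled by TMM, and genes were tested for skin over flesh with the quasi-likelihood test (robust) and Benjamini-Hochberg adjustment at 0.05, without a replicate block. Tested genes held 98.4% or more of every library's counts. The SE of a named gene's log2 fold change comes from the spread of log2 CPM between libraries, and that of the abundance classes from log2(CPM + 0.5). Per-library measures were computed in Python 3.11.15 with scipy 1.17.1, and numbers at equal depth are hypergeometric expectations. Intervals are exact (Clopper-Pearson) at 95%. Replicates differed beyond sampling noise in every pair, with a mean squared deviation per gene of 6.19 to 6.65 times that of counting. The code was tested on simulated data. Alternatives were DESeq2 1.42.0, other scalings and filters, thinned counts (seed 11), a replicate block, all 4 groups together, and each library left out.

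The named genes are the 2 most abundant in their own tissue per direction, among genes with adjusted p under 0.05, at least 2-fold apart and with libraries that do not overlap. The comparison and the lists were chosen with earlier results of these data known.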

Additional observations from a re-analysis of the deposited data

Results flagged for a closer look

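The tissue gap in concentration was smaller in the mutant than in the wild-type line, by a test of the difference itself. For the 10 most abundant genes the gap, skin minus flesh, was 1.92 percentage points in MT and 3.23 in WT, a difference of -1.3. For the 100 most abundant genes it was 2.74 points in MT and 4.14 in WT, a difference of -1.4. The top 10 share was 5.14% ± 0.0425 in MT skin and 6.25% ± 0.115 in WT skin, and 3.21% ± 0.0257 in MT flesh and 3.02% ± 0.055 in WT flesh (SD, n = 3 each). When genotype labels were exchanged within tissues in a two-sided exact permutation test, each of these differences had p = 0.005, the smallest that 400 arrangements allow, and 0.0275 after Benjamini-Hochberg adjustment over 11 measures. The other 9 measures had adjusted p from 0.055 to 0.805 in the same exact permutation test. The single most abundant gene took 1.33% ± 0.019 of the counts in MT skin and 1.87% ± 0.0372 in WT skin (SD, n = 3 each), and it was the same gene, Ibat.Brg_v3.06CG006510, in all 6 skin libraries. With the most abundant gene of each library removed, the differences were -0.696 and -0.864 points and no longer passed.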

How the results depend on the processing

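The counts of genes that differed, and of those higher and lower, stayed within 1.5 times under every alternative run. Those that differed numbered 31178 to 36121 with 1 library left out, 40547 with all 4 groups fitted, 40009 without the filter, 29436 with a minimum count of 30 and 35281 with DESeq2. With the minimum count of 30, 4819 genes were at least 4-fold lower in place of 7423, on 48010 genes tested. Of the 37545 genes called with library totals 31870 were called in the same direction with TMM, and of 32231 called in thinned counts 31285. The number of genes above 1 CPM, skin minus flesh, reversed from 1762 to -2634 with library totals and -3499 per length, and that above 10 CPM from 1336 to -1748 and -2113. No direction changed among the other per-library measures under any alternative run. For genes with at least 1 or at least 10 counts these runs were the counts as deposited and libraries left out. None of them used TMM, and the deposited counts favour the deeper flesh libraries, so these runs could not show whether the scaling matters there. Outside these runs, flesh drawn to 7006062 counts came near to a match by TMM with skin at 8507461 counts. There the direction was kept for at least 1 count and turned for at least 10 counts.

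Same-numbered skin and flesh libraries are not stated to come from the same plants. Their deviations from the group means correlated by -0.00187, 0.00829 and 0.0138, and the replicate block gave 32513 genes that differed. With 3 libraries per tissue these values cannot decide whether the libraries are paired.

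The test of the tissue gap in MT against WT used alternatives chosen after seeing the data. With the most abundant gene removed the difference was -0.696 for the top 10 (adjusted p = 0.055, exact permutation test) and -0.864 for the top 100 (adjusted p = 0.0917, exact permutation test). With 1 of the 12 libraries left out it was -1.36 to -1.24 for the top 10 and -1.5 to -1.27 for the top 100. The adjusted exact permutation p was then 0.055 for all but the omission of WT flesh replicate 1 (0.0367). Each omission leaves 200 arrangements, which allow no p under 0.01 in this exact test. Where 2 measures reach that p, 0.055 is the smallest adjusted value possible, so it does not show a weaker difference. The 4 named genes kept their direction and passed the test under every alternative run. Counts in the abundance classes moved beyond 1.5 times in 11 cases, 9 of them when classes were set by the higher tissue mean and the other two in the lowest class with thinned counts. Depth limits what can be said of genes under 1 CPM.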
